A study of Mus musculus with 2 samples.

Results

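Polycomb repressive complex PRC2 writes methylation on H3K27, the repressive mark of bivalent chromatin, and 10 genes of this system were followed from neural progenitor cells (NPCs) to neurons of the embryonic mouse cortex. They were chosen by gene name, with earlier results of these data known. The core subunit genes were Ezh1, Ezh2, Suz12 and Eed, and the accessory subunit genes were Mtf2, Phf1, Phf19, Jarid2 and Aebp2. The last member was the H3K27 demethylase gene Kdm6b. All 10 were found among the 20373 listed genes, each on 1 row, and all 10 were at 1 CPM or more in at least 1 library (CPM, counts per 1000000 reads), as were 12693 genes in all. There was 1 library of total RNA from each population, both from cortex at embryonic day 15.5. All embryos came from heterozygous Nestin-GFP mice crossed with homozygous DCX-mRFP mice and carried both reporters, green under Nestin and red under doublecortin (Dcx). Green cells stood for NPCs and double-coloured cells for neurons, so the neurons were defined by carrying the progenitor reporter too. The number of embryos pooled is not given in the sources used here. The series sets transcript levels beside polymerase pausing and bivalent histone marks in the same 2 populations, and those other assays were not analysed here.

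PRC2 is built on a core in which a methyltransferase, EZH2 or its paralog EZH1, is held by SUZ12 and EED. EZH2 is the enzyme typical of dividing cells and EZH1 the one known for persisting in cells that have stopped dividing. Accessory subunits divide the complex into separate forms: a Polycomb-like protein (MTF2, PHF1 or PHF19) defines PRC2.1, while JARID2 and AEBP2 define PRC2.2. KDM6B removes the mark, as does its relative KDM6A. In the developing cortex PRC2 is known for its part in timing the switch from making neurons to making glia.

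With 1 library per population there is no replicate check and no p-value. Every interval below is a 95% counting interval, exact, and covers counting error only, not variation between animals or libraries. No tagging of single molecules is described and reads need not be independent, so even the counting error may be understated. In bulk RNA, fewer cells of a type and less RNA per cell cannot be told apart. The NPC library held 26346226 reads and the neuron library 23312054. Nes was at 408.5 CPM among NPCs and 189.5 among neurons, and Dcx at 2522 and 3294, so both reporter genes were abundant on both sides of the sort. All 15 mitosis genes were past 2-fold with the excess among NPCs, and their summed level in the neuron library was 33.1% of that in NPCs. Transcripts of other cell types also differed. The sum of 7 pericyte genes was 202.6 CPM among NPCs and 9.35 among neurons, with Des at 0 reads in neurons, and that of 8 endothelial genes 21.8 and 3.34. The sum of 6 oligodendrocyte lineage genes was 75.9 and 28.8 CPM, that of 9 microglia genes 30.4 and 131.5, and that of 5 Cajal-Retzius genes 99.2 and 458.9. The sum of 7 interneuron genes was 313.3 CPM among NPCs and 223.6 among neurons, and 5 of the 7 had an excess of at least 25% among NPCs and 0 among neurons, at a median log2 ratio of neuron to NPC, with 1 CPM added, of -0.57. The part of these cells in the values below was not tested.

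Of the 10 genes, 7 were higher among NPCs and 3 among neurons, and most differences were small. With 1 CPM added to both values, 1 member (Phf19) reached a 2-fold excess among NPCs and 0 among neurons, against 6.73% and 3.85% of all genes past the filter. An excess of at least 25% was found among NPCs for 5 members (Ezh2, Suz12, Eed, Aebp2 and Phf19), against 21.8% of all genes, and among neurons for 1 (Phf1), against 19.9%. Over the members the median log2 ratio, neuron over NPC, was -0.24, which is 1.18-fold higher in NPCs, beside -0.0049 over all genes. The middle range of all genes, from the 25th to the 75th percentile, ran from -0.26 to 0.24. The counting interval of the ratio left out equality for 6 members higher in NPCs and 2 higher in neurons, against 34.6% and 33.6% of all genes. For the other 2 members, Mtf2 and Kdm6b, the interval held equality at the deposited scaling. With total reads or upper quartiles as the scaling, 7 members higher in NPCs left out equality, Mtf2 joining the others.

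**Figure D1:**
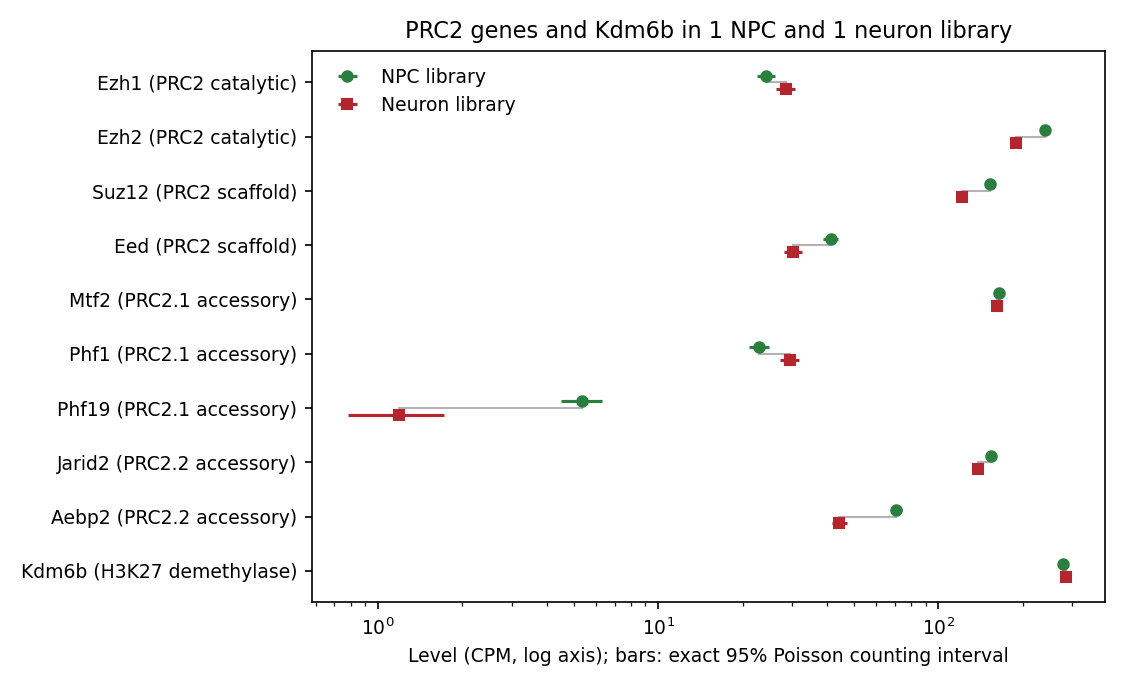
Level of each member in the NPC library (green circles) and the neuron library (red squares), in CPM on a log axis, with exact 95% Poisson intervals of the read count. Phf19 is the lowest in both libraries and has the widest gap between them, while the points of Mtf2 and Kdm6b lie almost on top of each other.

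The 2 methyltransferase genes differed in opposite directions. Ezh2 was at 240.8 CPM among NPCs (235.0 to 246.8) and 189.2 among neurons (183.6 to 195.0), and the intervals did not overlap. Its level was 1.27-fold higher in NPCs (1.22 to 1.32), so that 78.6% of the progenitor level was found with the neurons. Ezh1 was at 24.3 CPM among NPCs (22.5 to 26.2) and 28.5 among neurons (26.3 to 30.8). Its ratio was 1.17-fold in favour of neurons (1.05 to 1.31), the lower bound lying close to equality. Neither gene stands at the edge of the distribution: 20.6% of all genes had a lower log2 ratio than Ezh2, and 26.3% one at least as high as that of Ezh1. Over all genes, the interval of the ratio left out equality with NPCs higher for 34.6% and with neurons higher for 33.6%.

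Because both genes were counted in the same libraries, the change in the ratio of their reads does not depend on the scaling between libraries. Nor does it depend on transcript length, provided that each gene has the same transcript forms in both libraries, which was not examined. The NPC library held 655 reads of Ezh1 and 6496 of Ezh2, and the neuron library 649 and 4311. For each read of Ezh1 there were 9.92 reads of Ezh2 among NPCs and 6.64 among neurons. The Ezh1 to Ezh2 ratio was thus 1.49-fold higher in neurons (1.33 to 1.68). Divided by the length of the annotated exons, Ezh2 was at 85.9 CPM per kilobase among NPCs and 67.5 among neurons, and Ezh1 at 3.99 and 4.68, so Ezh2 was the more abundant transcript of the pair in both libraries.

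The scaffold genes went the way of Ezh2. Suz12, whose protein holds the complex together and docks the accessory subunits, was at 153.2 CPM among NPCs (148.6 to 157.9) and 121.6 among neurons (117.1 to 126.2), 1.26-fold higher in NPCs (1.20 to 1.32). Eed, whose protein binds methylated H3K27 and stimulates the enzyme, was at 41.3 CPM (38.9 to 43.8) and 30.3 (28.1 to 32.6), 1.36-fold higher in NPCs (1.24 to 1.50). The intervals of the levels did not overlap in either gene, and the intervals of the 3 folds, those of Ezh2, Suz12 and Eed, overlapped one another. Of all genes, 21.3% had a lower log2 ratio than Suz12 and 17.3% a lower one than Eed. The interval of the ratio left out equality with NPCs higher for 34.6% of all genes. The read ratio of Eed to Suz12 was 0.269 among NPCs and 0.249 among neurons, and its change held equality (0.924-fold, 0.830 to 1.03). A difference between the scaffold genes in the size of their excess was therefore not detectable at this depth, and up to a 1.21-fold smaller ratio in neurons remains within the interval.

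**Figure D2:**
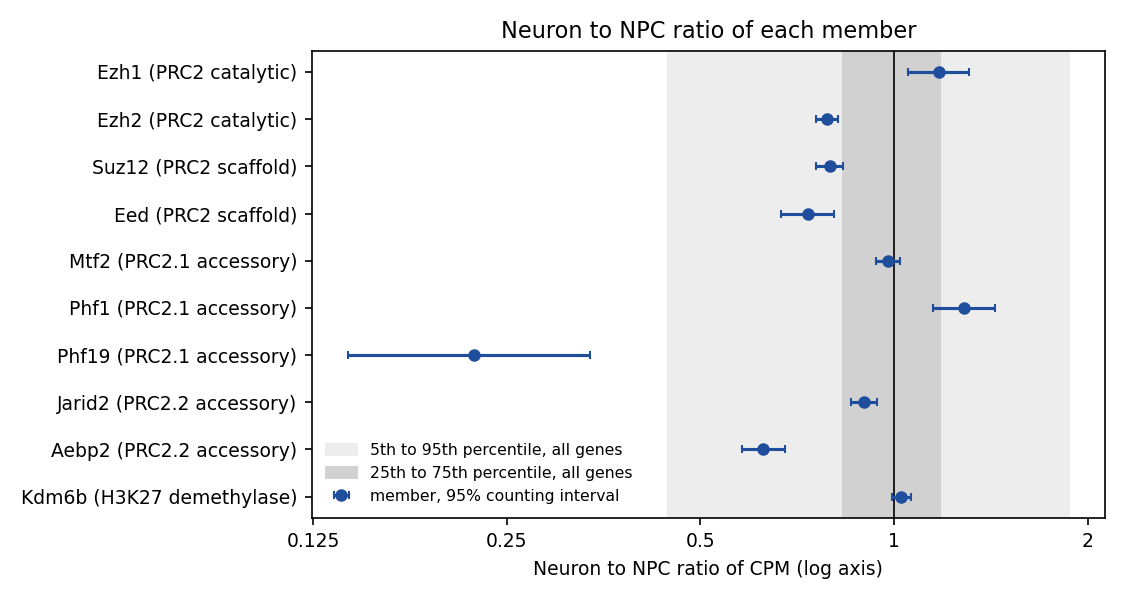
Neuron to NPC ratio of CPM for each member (log axis, no added value) with its 95% counting interval, over the range of all 12693 genes past the filter (computed with 1 CPM added to both values). Phf19 lies left of the 5th percentile, and Ezh2, Suz12, Eed and Aebp2 lie between the 5th and the 25th.

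The 3 Polycomb-like genes of PRC2.1, which encode interchangeable subunits that bring the complex to CpG islands, spanned the widest range of ratios among the groups of members. Phf19 was at 5.34 CPM among NPCs (144 reads, 4.50 to 6.29) and 1.19 among neurons (27 reads, 0.781 to 1.72). It was 4.50-fold higher in NPCs (2.97 to 7.07), and 1.99% of all genes had a lower log2 ratio. The neuron library thus held 22.2% of the NPC level. For comparison, single mitosis genes kept 29.1% to 40.5% of their NPC level in the neuron library and radial glia genes 16.7% to 46.4%. Mtf2 was at 165.2 CPM among NPCs (160.4 to 170.1) and 161.5 among neurons (156.4 to 166.8), and these intervals overlapped (1.02-fold higher in NPCs, 0.979 to 1.07). Phf1 was the member with the largest excess in neurons, at 22.9 CPM among NPCs (21.1 to 24.8) and 29.5 among neurons (27.3 to 31.8), 1.29-fold higher in neurons (1.15 to 1.44). With total reads or upper quartiles as the scaling its excess, with 1 CPM added, came to less than 25%, and its direction held.

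Mtf2 carried most of the PRC2.1 reads. Phf19 had 1 read for every 30.9 reads of Mtf2 in NPCs and 1 for every 136.3 in neurons, a 4.40-fold lower ratio to Mtf2 in neurons (2.90 to 6.93). The read ratio of Phf1 to Mtf2 went the other way, from 0.139 to 0.182 (1.31-fold higher in neurons, 1.17 to 1.48). Summed over the 3 genes, PRC2.1 transcripts were at 193.5 CPM among NPCs and 192.2 among neurons. At the deposited scaling these sums were equal within the counting interval (1.007-fold, 0.967 to 1.05), and equality under other scalings is not claimed.

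Both PRC2.2 genes were higher in NPCs. Jarid2, a catalytically inactive relative of the jumonji demethylases that helps PRC2 bind chromatin, was at 154.2 CPM (149.5 to 158.9) and 138.5 (133.7 to 143.4), 1.11-fold higher in NPCs (1.06 to 1.17). Aebp2, a zinc finger subunit, was at 70.8 CPM (67.6 to 74.0) and 44.3 (41.6 to 47.1), 1.60-fold higher in NPCs (1.48 to 1.73). In neither gene did the intervals of the levels overlap. Of all genes, 33.3% had a lower log2 ratio than Jarid2 and 11.4% a lower one than Aebp2. The interval of the ratio left out equality with NPCs higher for 34.6% of all genes, so this alone does not set either gene apart. The ratio of Aebp2 to Jarid2 reads was 0.459 among NPCs and 0.320 among neurons, 1.44-fold lower in neurons (1.31 to 1.57), so the difference of Aebp2 was the larger one beyond counting error.

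Set against each other, the accessory genes of the 2 forms stood in a different balance in each library. The summed reads of Mtf2, Phf1 and Phf19 were 0.860 of those of Jarid2 and Aebp2 among NPCs (5218 and 6068 reads) and 1.05 among neurons (4378 and 4165). The ratio was 1.22-fold higher in neurons (1.15 to 1.29). Leaving out each of the 5 genes in turn gave 1.11-fold (1.04 to 1.18, without Aebp2) to 1.59-fold (1.46 to 1.73, without Jarid2). Every one of these 5 intervals lay above equality, and the ratio moved most without Jarid2, the more abundant of the PRC2.2 genes by reads. The 5 ratios share most of their reads, Mtf2 alone holding 4456 of the 5218 PRC2.1 reads in NPCs, so they are not separate checks. Intervals that leave out equality are common at this depth: 34.6% of single genes had one with NPCs higher and 33.6% with neurons higher. The summed reads come from genes of different length, so the level of the ratio has no meaning as a stoichiometry. Its change between libraries is a change in reads, to which longer transcripts can add more.

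**Figure D3:**
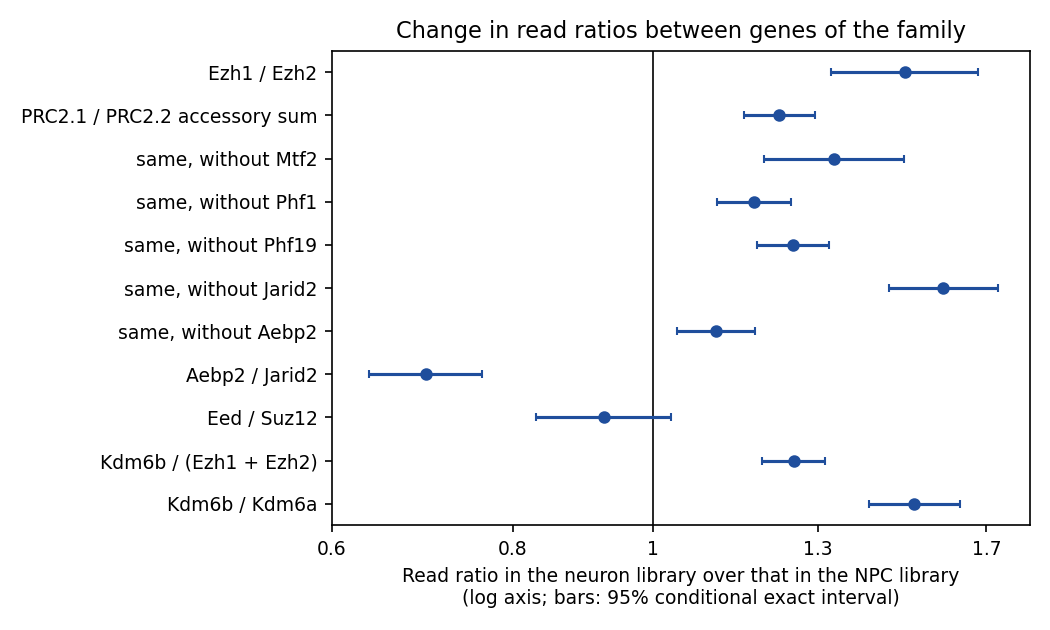
Change in the ratio of reads between genes of the family, as the ratio in the neuron library over that in the NPC library (log axis), with 95% conditional exact intervals. Ezh1 over Ezh2 and PRC2.1 over PRC2.2 lie right of 1 (1.49 and 1.22), Aebp2 over Jarid2 lies left of it, and Eed over Suz12 reaches across it.

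Kdm6b, the demethylase gene, had the highest read count of the members in both libraries, and with Mtf2 it was the member closest to equal. It was at 277.3 CPM among NPCs (271.0 to 283.6) and 284.7 among neurons (277.8 to 291.8), and these intervals overlapped. The ratio was 1.03-fold in favour of neurons (0.993 to 1.06), and its direction turned when total reads set the scaling (0.980-fold). At 7479 and 6487 reads the interval leaves room for a difference of at most 1.06-fold at the deposited scaling. Its relative Kdm6a was at 96.7 CPM among NPCs and 65.5 among neurons, 1.48-fold higher in NPCs (1.38 to 1.57). The ratio of Kdm6b to Kdm6a reads was 2.87 among NPCs and 4.34 among neurons, 1.52-fold higher in neurons (1.41 to 1.63). Against the summed reads of Ezh1 and Ezh2, Kdm6b stood at 1.05 reads per read of methyltransferase among NPCs and 1.31 among neurons, a ratio higher by 1.251-fold (1.19 to 1.31). These read ratios with Kdm6b, and those within the pairs of accessory and scaffold genes, were chosen after the values were seen.

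Per kilobase of annotated exon, the order of the members was the same in both libraries. In NPCs it ran from Ezh2 (85.9 CPM per kilobase) through Kdm6b (41.7), Mtf2 (40.7), Suz12 (35.03), Jarid2 (25.0) and Eed (19.96) to Phf1 (8.67), Aebp2 (8.67), Ezh1 (3.99) and Phf19 (1.43). In neurons the corresponding levels were 67.5, 42.8, 39.8, 27.8, 22.5, 14.7, 11.1, 5.43, 4.68 and 0.317. Kdm6b and Mtf2 did not differ beyond counting error in NPCs (40.7 to 42.6 and 39.5 to 41.9), nor did Phf1 and Aebp2, and this last pair changed places in NPCs when the longest coding transcript set the length. Among the 11514 genes past the filter that matched an annotated length, Ezh2 stood at percentile 96.0 among NPCs and 93.5 among neurons. Phf19 stood at percentile 14.6 and 4.32, and Ezh1 at 27.4 and 31.9. The exon lengths are those of a later annotation than the build mm9 that the submitters used, which touches the order but not the ratio between libraries.

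**Figure D4:**
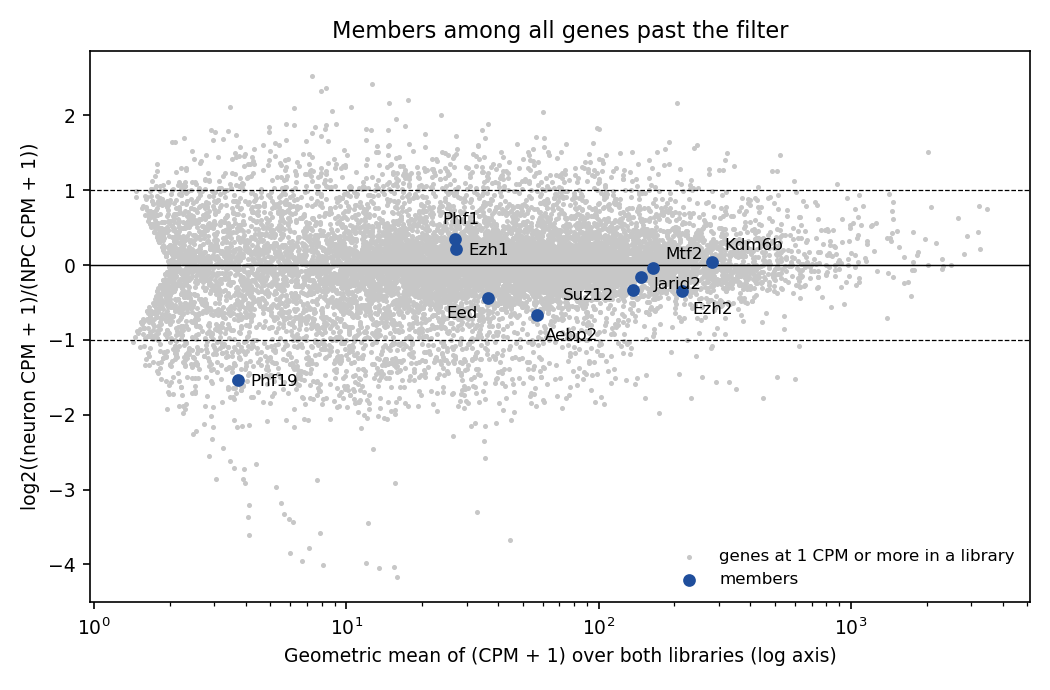
All 12693 genes past the filter (grey) by mean level (log axis) and log2 ratio of neuron to NPC with 1 CPM added, with the 10 members in blue and dashed lines at 2-fold. Phf19 is the 1 member past a dashed line, and it is also the member with the lowest level.

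Promoter sequences of the members were read beside these values, whatever the direction of the gene. Of the 10 members, 7 were lower in neurons: Ezh2, Suz12, Eed, Phf19, Jarid2, Aebp2 and, close to equal, Mtf2. Whether promoter sequence bears on these levels was not tested. E2F factors, which drive genes of the dividing cell, bind words of the form TTTCCCGC, TTTCGCGC, TTTGCCGC or TTTGGCGC, and NRF1, a factor of many housekeeping promoters, binds CGCATGCG. All were searched on both strands, from 250 bases before to 50 after each start in the RefSeq promoter table of GRCm38.p6. Words of the E2F set can overlap on opposite strands, but no member promoter held more than 1. The table matched 9 of the 10 members with 13 promoters, Kdm6b not being among them. An E2F word stood in promoters of 3 of these 9 genes, Ezh2, Suz12 and Phf19, and in 4.77% of the 9101 matched genes past the filter (2.26% of all 32851 promoters). The NRF1 word stood in 0 of the 9 and in 4.43% of the matched genes (1.87% of all promoters). A match is a description of the letters and no sign of binding. The share of G and C was 64.3% (Ezh2), 71.0% (Suz12) and 74.3% (Phf19) in the promoters with a word. In the other member promoters it ran from 45.7% to 68.7%. The shares over all genes were not matched for base composition, so no enrichment is claimed. Of the members with an excess of at least 25% among NPCs, Eed and Aebp2 held no such word in these windows.

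The promoters with an E2F word are shown with the word in capitals, and that of Ezh1 as the paralog of Ezh2. Each runs in the direction of its gene and ends at the base before the start, except that of Ezh2, which runs 20 bases further. The word of Ezh2 begins 3 bases after the start, that of Suz12 219 bases before it, and that of Phf19, on the opposite strand, 208 bases before it. In GRCm38.p6 they lie at chr6:47595011-47595280 (Ezh2, minus strand), chr11:79992856-79993105 (Suz12, plus strand), chr2:34913977-34914226 (Phf19, minus strand) and chr11:101226464-101226713 (Ezh1, minus strand).
Ezh2: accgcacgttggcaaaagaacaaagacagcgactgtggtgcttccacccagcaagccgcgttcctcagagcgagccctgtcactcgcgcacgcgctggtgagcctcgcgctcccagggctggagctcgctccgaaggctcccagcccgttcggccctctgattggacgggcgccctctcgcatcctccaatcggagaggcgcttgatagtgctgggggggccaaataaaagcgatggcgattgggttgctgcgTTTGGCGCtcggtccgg
Suz12: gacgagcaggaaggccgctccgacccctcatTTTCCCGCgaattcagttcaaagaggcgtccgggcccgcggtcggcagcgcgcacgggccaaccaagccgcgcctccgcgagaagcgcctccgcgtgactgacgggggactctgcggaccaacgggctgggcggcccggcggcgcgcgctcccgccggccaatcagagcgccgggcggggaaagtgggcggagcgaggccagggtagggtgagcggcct
Phf19: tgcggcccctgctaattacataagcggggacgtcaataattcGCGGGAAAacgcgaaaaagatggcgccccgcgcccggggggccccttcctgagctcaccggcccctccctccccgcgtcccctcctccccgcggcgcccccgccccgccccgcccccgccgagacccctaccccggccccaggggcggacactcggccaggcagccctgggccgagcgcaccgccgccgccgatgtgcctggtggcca
Ezh1: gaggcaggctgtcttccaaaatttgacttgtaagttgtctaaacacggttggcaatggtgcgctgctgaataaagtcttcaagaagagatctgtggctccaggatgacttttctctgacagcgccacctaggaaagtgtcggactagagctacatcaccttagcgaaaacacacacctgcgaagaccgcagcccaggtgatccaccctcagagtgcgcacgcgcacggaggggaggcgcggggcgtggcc

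Other genes of the Polycomb and bivalency systems were counted over whole lists. Over all genes past the filter, the share with an excess of at least 25% was 21.8% among NPCs and 19.9% among neurons. Of 5 further PRC2 and H3K27 genes past the filter, 2 had an excess of at least 25% among NPCs and 0 among neurons, at a median log2 ratio of -0.17, and Kdm6a (above) had the largest difference. The partner Ezhip, an inhibitor of PRC2, did not pass the filter. Some products of PRC1 genes read the PRC2 mark or ubiquitylate H2A. Among 18 PRC1 genes, 3 had an excess of at least 25% among NPCs and 4 among neurons, at a median of 0.075. Pcgf5, a subunit of a variant PRC1, was the 1 PRC1 gene past 2-fold, at 5.75 CPM among NPCs and 1.23 among neurons (4.67-fold higher in NPCs, 3.11 to 7.27).

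Of 4 PR-DUB genes, which remove the PRC1 mark, 1 had an excess of at least 25% among NPCs and 0 among neurons (median -0.046), and Asxl2 differed the most, 1.32-fold higher in NPCs (1.23 to 1.41). None of 5 H3K36 methyltransferase genes, whose mark hinders PRC2, reached 25%, and Nsd1 had the largest difference (1.12-fold higher in NPCs, 1.10 to 1.15). Of 9 genes of the COMPASS complexes, which write H3K4 methylation, including the activating mark of bivalent chromatin, 0 reached 25%, at a median of -0.19. Kmt2c, listed as Mll3, came nearest at 1.23-fold higher in NPCs (1.20 to 1.26). Beside the median of -0.24 of the 10 members, the medians of all 5 lists thus lay between -0.19 and 0.075, far from those of the mitosis genes (-1.48), of the replication genes (-1.07) and of the radial glia genes (-1.65). The median of 10 housekeeping genes was -0.11.

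**Figure D5:**
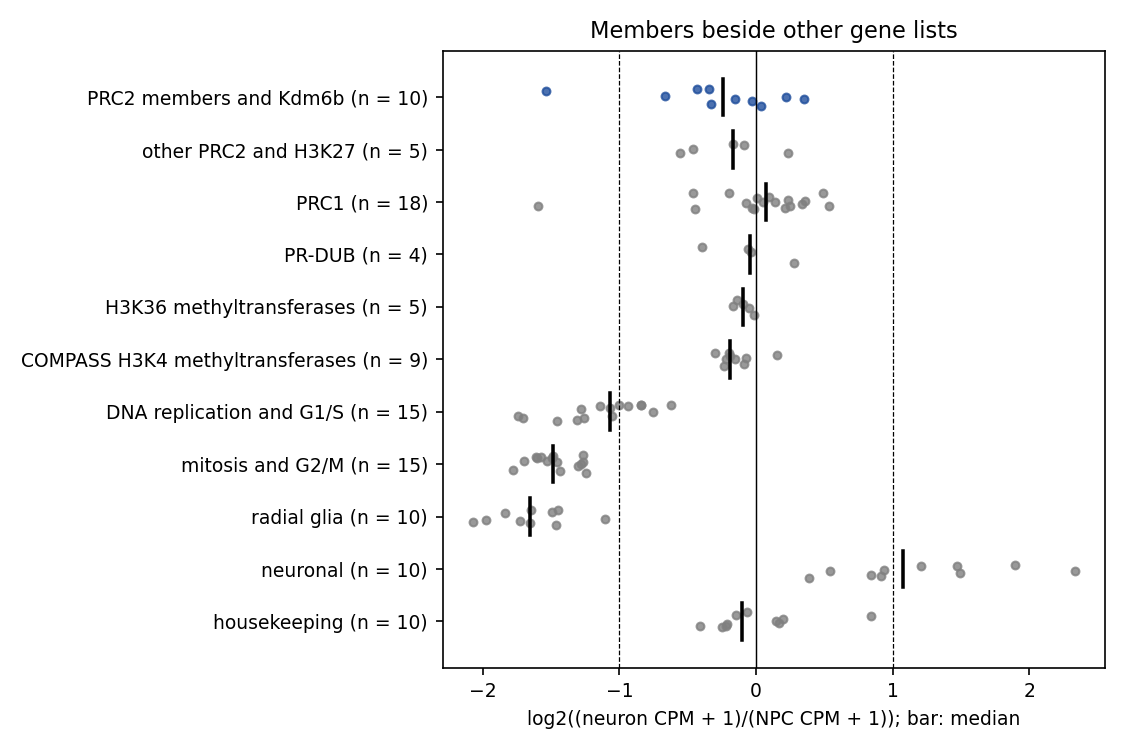
Log2 ratio of neuron to NPC, with 1 CPM added, for the 10 members (blue) and the genes of other lists (grey), with the median as a bar, dashed lines at 2-fold, and n the genes past the filter. The members and the chromatin lists gather around 0, with Phf19 and Pcgf5 apart at -1.54 and -1.60, while cell cycle and radial glia genes lie to the left and neuronal genes to the right.

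Among the 102 genes of those pathway, cell cycle, radial glia, neuronal and housekeeping lists, the ones nearest to 3 of the members were found by the distance of their log2(CPM + 1) values over the 2 libraries. Nearest to Ezh2 were Pgk1 (distance 0.16), Kmt2b, listed as Wbp7 (0.20), and Sdha (0.29). Nearest to Phf19 were Pcgf5 (0.094), then Hes1 at 0.96 and Ccne1 at 1.62. Nearest to Kdm6b were Setd2 (0.13), Kdm2b (0.14) and Phc2 (0.21). With 2 libraries this likeness describes a level and a ratio and no more.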

How the data were processed

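Per the submitters' processing notes, the tools were TopHat 1.2.0, CASAVA 1.9, SAMtools 0.1.18 and edgeR on the build mm9. Whether strand was used in counting is not stated. The deposited signal came as whole multiples of 1 step per library (0.953 and 1.13), the form of rescaled read counts, and division by it returned whole reads, within 0.05, for 99.97% and 99.75% of values. Deposited values under 0.01 were taken as 0. CPM is the deposited value over 25698104, the mean of both sums, times 1000000, which keeps the authors' scaling. Genes reaching 1 CPM in a library were compared by log2((neuron + 1)/(NPC + 1)). Folds of single genes have no added value and a 95% Clopper-Pearson interval on the share of reads, and read ratios have a conditional exact interval (SciPy 1.17.1). Alternatives were other scalings (total reads, upper quartiles, TMM with edgeR 4.0.16), added values and filters. The calculations were tested on simulated data. Exon lengths came from GENCODE M21 on GRCm38, by symbol.

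Members and lists were chosen with earlier results of these data known. All 10 members are named, as are, from each further chromatin list, the genes past 2-fold or else the 1 with the largest difference, and the 3 nearest genes of Ezh2, Phf19 and Kdm6b. Of 156 list genes, 7 stood under an older symbol, and Yaf2 and Setd1b were not found. Protein sequences were not used here.

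Exons of Ezh2, Suz12, Eed, Mtf2, Phf1 and Kdm6b overlap another gene on the opposite strand over 3.10% (Phf1) to 12.6% (Eed) of their length, and reads there could belong to either. No other annotated transcript matched a member at 95% identity over 200 bases, apart from such overlaps.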

Additional observations from a re-analysis of the deposited data

How the results depend on the processing

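Of 10 members, 9 kept their direction under all 4 scalings, and Kdm6b turned. The Ezh1 to Ezh2 change stayed within its interval with 1 CPM added to each gene, and the counts of members whose interval left out equality stayed within 6 to 7 in NPCs and at 2 in neurons over the scalings and a 99% interval. With 5 CPM added, 0 members reached a 2-fold excess among NPCs, and likewise with a minimum of 10 CPM, which leaves out Phf19. The number with an excess of at least 25% among neurons was 0 with total reads, with upper quartiles and with 5 CPM added, in place of 1. Over all genes, 399 (NPC) and 238 (neuron) were past 2-fold with 5 CPM added, in place of 854 and 489. With no added value 764 were past 2-fold in neurons, and with a minimum of 10 CPM 548 were past 2-fold and 1835 past a 25% excess among NPCs, in place of 854 and 2772. The log2 change of the PRC2.1 to PRC2.2 ratio, 0.29, was 0.42 without Mtf2, 0.67 without Jarid2 and 0.14 without Aebp2, these sums holding fewer genes. The log2 ratio of Phf19, -1.54, was -0.74 with 5 CPM added and -2.17 with no added value. The other 55 of 60 member values moved by less than their counting interval, the remaining 3 (Ezh2, Mtf2 and Kdm6b) moving with total reads. Depth limits Phf19 most, at 27 neuron reads, and 3 reads correspond to 0.111 CPM in NPCs and 0.132 in neurons. No paired analysis was possible because each group has 1 library.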
